A study of Rattus norvegicus with 12 samples.

Results

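Transcripts of the Rap small GTPases and of the proteins that switch them on and off were examined in gonadotrope-enriched cultures of rat anterior pituitary, 40 min after gonadotropin-releasing hormone (GnRH). The members are 8 genes fixed by name, Rap1a, Rap1b, Rap2a, Rap2b, Rap1gap, Rapgef1, Rapgef3 and Rapgef4. They were found as the probe sets whose single gene symbol in the platform annotation is one of these names, which gave 11 of the 31042 probe sets that are not array controls. Rap1a, Rap1b and Rapgef1 have 2 probe sets each and the other 5 genes have 1 each.

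The data are 12 oligonucleotide arrays of the Affymetrix Rat 230 2.0 design, of which 6 came from cultures given 10 nM GnRH and 6 from cultures given vehicle medium. The donors were adult female Sprague-Dawley rats, all ovariectomized 2 weeks earlier, with 13 to 15 animals pooled per experiment, and all cells were cultured in medium with 0.2 nM estradiol and charcoal-treated serum until day 3. Large cells were collected by sedimentation at unit gravity in 3 separate preparations, enrichment sets I, II and III, each with 2 GnRH and 2 vehicle samples. Luteinizing hormone was found by staining in 40 to 60% of the large cells, per the labels, so the cultures hold other pituitary cells as well, and fewer cells of a type cannot be told apart from less RNA per cell.

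Rap proteins are members of the Ras superfamily that are active when bound to GTP. Guanine nucleotide exchange factors load them with GTP: Rapgef1 acts downstream of tyrosine kinases through Crk adaptors, and Rapgef3 and Rapgef4 (Epac1 and Epac2) are opened directly by cyclic AMP. Rap1gap, a GTPase-activating protein, returns them to the inactive state. Rap proteins control integrin adhesion, cell junctions, secretion and signalling to MAP kinases, and Rap1b is named in the study's title. The arrays measure transcript abundance and carry no information on how much Rap is bound to GTP.

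The upstream sequences of Rap1b and Rap1a are shown because these close paralogs are the pair on which the comparison of GnRH responses turns. RefSeq upstream windows of 250 bases that end at the annotated gene start were available for 7 of the 8 genes, and Rapgef1 was not matched. The windows are from build GRCr8, at chr7:55342218-55342467 on the minus strand for Rap1b and chr2:195974809-195975058 on the minus strand for Rap1a, each written 5′ to 3′ along the gene's strand. Capitals mark matches to 4 motifs searched on both strands: the cyclic AMP response element TGACGTCA, its core TGACG, the AP-1 motif TGANTCA and the EGR motif GCGTGGGCG.
Rap1b: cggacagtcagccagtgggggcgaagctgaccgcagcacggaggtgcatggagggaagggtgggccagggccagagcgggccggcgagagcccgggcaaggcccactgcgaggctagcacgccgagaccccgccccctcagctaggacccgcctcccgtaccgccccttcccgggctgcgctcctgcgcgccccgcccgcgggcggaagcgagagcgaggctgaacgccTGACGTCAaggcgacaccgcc
Rap1a: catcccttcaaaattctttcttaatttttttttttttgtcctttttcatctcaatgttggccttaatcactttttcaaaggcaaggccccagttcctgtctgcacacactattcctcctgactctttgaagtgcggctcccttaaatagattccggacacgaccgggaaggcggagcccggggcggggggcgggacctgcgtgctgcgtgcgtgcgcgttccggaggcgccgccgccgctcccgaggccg
The Rap1b window holds 1 full cyclic AMP response element, which starts 21 bases before the gene start and itself accounts for 2 overlapping core matches. Among 33469 such windows of all genes, 1.59% hold the full element, 18.2% the core, 6.34% the AP-1 motif and 0.478% the EGR motif. The Rap1a window holds none of the 4 motifs. In the other 5 genes the 1 match was an AP-1 motif in the Rapgef3 window, 123 bases before the start. G and C made up 74.8% of the Rap1b window and 55.6% of the Rap1a window, against a median of 51.2% over all windows. A match to these letters is a description of the sequence and does not show that a factor binds there.

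The deposited values are probe set intensities on a linear scale, here brought to a trimmed mean of 500 on every array. The arrays fell into 2 technical kinds by the signal of the bacterial hybridisation spike-ins. On 5 arrays, those of set I and vehicle 5 of set III, the geometric mean spike-in signal was 2264 to 11705, whereas on the other 7 arrays it was 53482 to 320024. Another 27 control probe sets, for Bacillus transcripts, served as a measure of background. They were taken as not spiked in, which no source states. The 90th percentile of their signal was 54.4 to 94.3 on the 5 arrays and 219 to 575 on the 7. Spearman correlations between arrays were 0.91 to 0.935 among the 5 and, with vehicle 3 left aside, 0.594 to 0.688 among the 7. Vehicle 3 stood apart: its median correlation was 0.376, and those of the rest were 0.623 to 0.715. Lhb, the gonadotropin subunit gene that defines the target cell, was far above background on all 12 arrays, with signals of 21400 to 152000 in GnRH samples and 12600 to 153000 in vehicle samples.

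Differences between GnRH and vehicle samples are given on the log2 scale of signal plus a pseudocount of 16, which understates the change of dim probe sets. They come from a limma model with the enrichment set as a term, fitted to the 18625 probe sets that remained after the dimmest 40% by mean were set aside. Of the 11 member probe sets 8 passed this filter, from 7 genes. Both Rapgef1 probe sets and the second Rap1b probe set, 1380709_at, lay below it and were not tested.

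None of the 8 tested member probe sets differed between GnRH and vehicle samples. By limma 0 of 8 passed the adjusted threshold of 0.05, with adjusted p from 0.981 to 1, against 0.00537% of all tested probe sets, which is the 1 probe set of Fosb, an immediate early gene (2.29 ± 0.32). At an unadjusted p under 0.05 the members' count was also 0 of 8, against 3.45% of all. By the exact two-sided permutation test within sets, whose smallest possible p is 0.00926, the lowest unadjusted p among the 8 was 0.176. Of the 8 probe sets 4 were higher in GnRH samples (50%), against 53.6% of all tested probe sets, and the median difference was -0.06, against 0.04 over all. In 0 of the 8 was the difference of the same sign in all 3 sets, whereas 12.6% of all tested probe sets were higher in every set and 11.4% were lower in every set. The GnRH and vehicle groups overlapped in all 8, and 0.107% of all tested probe sets had groups that did not overlap. The 95% confidence intervals extended between 0.90 and 1.52 log2 units on each side of the estimate, which is the precision these arrays give.

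**Figure D1:**
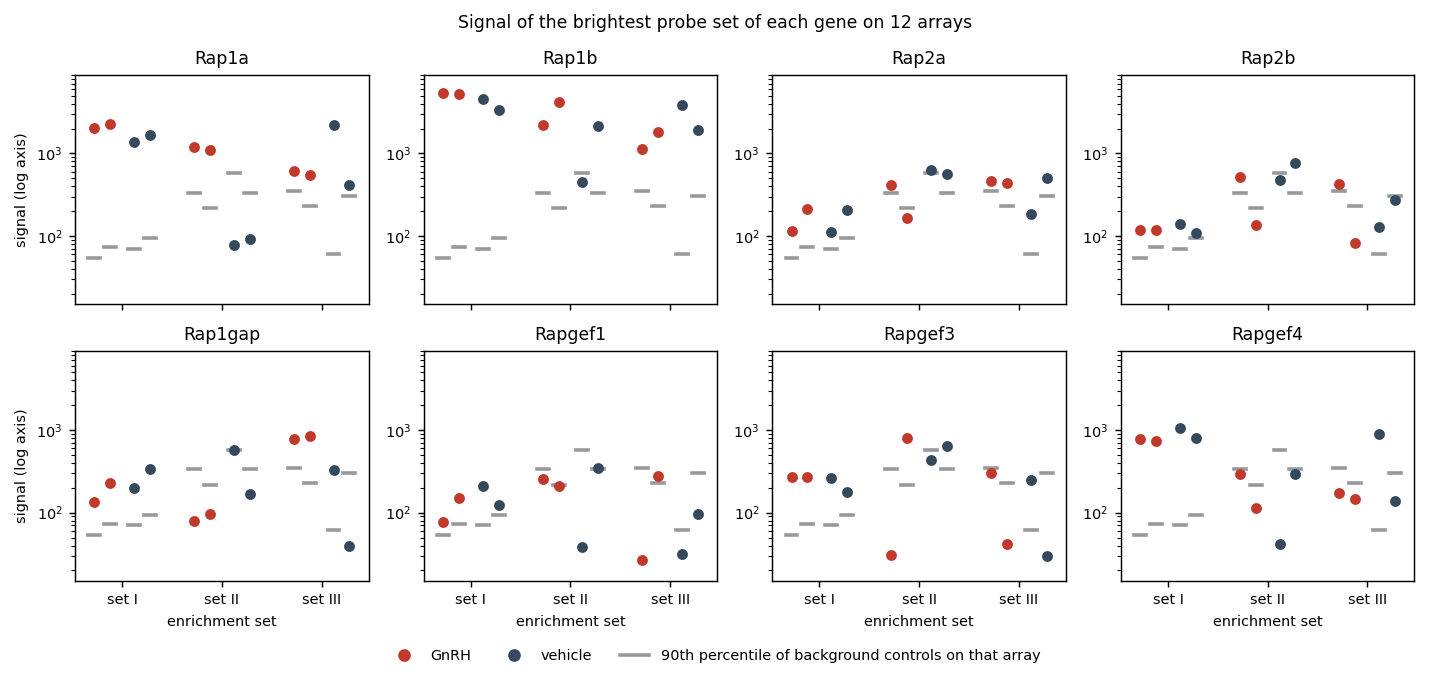
Signal of the brightest probe set of each of the 8 genes (vertical log axis, intensity units) on the 6 GnRH and 6 vehicle arrays, ordered by enrichment set, with a grey bar at the 90th percentile of the background controls of the same array. Rap1b lies above the bar on 11 of 12 arrays, whereas Rapgef4 lies above it on the 5 arrays with low spike-in signal and on 0 of the other 7.

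Among the GTPases, Rap1b was read well by 1 of its probe sets. For 1387806_at the set I signals were 5420 and 5250 in GnRH samples, against 4520 and 3350 in vehicle samples. In set II they were 2230 and 4230 in GnRH samples and 455 and 2120 in vehicle samples, and in set III 1120 and 1840 in GnRH samples and 3840 and 1920 in vehicle samples. Both GnRH samples thus lay above both vehicle samples in sets I and II and below both in set III. The log2 difference was 0.46 in set I, 1.62 in II and -0.91 in III. Over all sets the mean log2 level was 11.49 ± 0.92 in GnRH samples and 11.10 ± 1.19 in vehicle samples (SD, n = 6 each). The difference of 0.39 ± 0.42 (SE; limma adjusted p = 0.981), a fold of 1.31 with an interval of 0.704 to 2.44, did not exceed the spread between samples. Vehicle 3 was the 1 array on which 1387806_at lay below the background 90th percentile, and without it the difference was -0.04. Without vehicle 5 it was 0.68.

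The study's criterion asks for a fold of at least 1.50 and for concordance in at least 50% of pairwise comparisons. Applied on this scale without the GCOS change calls, it was met by 7.62% of all tested probe sets and by 0 of the 8 member probe sets. For Rap1b 38.9% of the 36 GnRH-vehicle pairs reached 1.50-fold, and for Rap1a 1388615_at 47.2% did, the highest share among the 8. The Rap1a fold of 2.13 passed the first condition and its share of pairs missed the second.

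The other Rap1b probe set, 1380709_at, had signals of 9.33 to 125 in GnRH samples (median 58.0) and 21.1 to 80.3 in vehicle samples (median 53.2). It exceeded the background 90th percentile on 2 of 12 arrays, so it gives no usable reading of the gene here. Its response (0.06) differed from that of 1387806_at by 0.33 ± 0.74 (log2, SE; exact within-set permutation p = 0.62, adjusted p = 0.62 over 3 such pairs).

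Rap1a, which differs from Rap1b at few residues and shares its regulators, had the largest difference of the 8 tested probe sets. With 1388615_at the set I signals were 2010 and 2240 in GnRH samples, against 1390 and 1660 in vehicle samples. In set II they were 1210 and 1100 in GnRH samples and 78.6 and 92.6 in vehicle samples. In set III they were 607 and 546 in GnRH samples and 2200 and 416 in vehicle samples. The GnRH samples exceeded the vehicle samples in the first 2 preparations, and those of set III lay between the vehicle samples. Both vehicle signals of set II lay below the background 90th percentile of their arrays (575 and 334), which leaves the size of the set II difference, 3.53, uncertain. It was 0.47 in set I and -0.73 in set III. Over all sets the difference was 1.09 ± 0.56 (log2, SE, n = 6 per group; interval -0.10 to 2.28; limma adjusted p = 0.981). It was 0.76 without vehicle 3 and 1.61 without vehicle 5.

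The second Rap1a probe set gave a smaller difference with the same signs in the 3 sets. For 1390201_at the GnRH signals ran from 20.8 to 478 with a median of 433, against 64.8 to 443 with a median of 353 in vehicle samples. GnRH 6, at 20.8, was far below the other GnRH samples (380 to 478), and vehicle 3, at 64.8, below the other vehicle samples. The difference was 0.07 ± 0.63 (log2, SE; limma adjusted p = 1), or 0.15 in set I, 1.31 in II and -1.26 in III. The Rap1a probe sets thus differed in response by 1.02 ± 0.79 (SE; exact within-set permutation p = 0.185, adjusted p = 0.458 over 3 pairs), less than their spread allows to be called.

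Rap2a and Rap2b belong to the second Rap subfamily, which has its own effectors, among them kinases of the MAP4K family. Rap2a signals were 114 to 467 in GnRH samples (median 315) and 113 to 626 in vehicle samples (median 355). The difference of -0.19 ± 0.46 (log2, SE, n = 6 per group; limma adjusted p = 0.993) had an interval of -1.17 to 0.80, and it was 0.02 in set I, -1.13 in II and 0.54 in III. In set II the GnRH signals of Rap2a, 420 and 164, lay below the vehicle signals of 626 and 566. Rap2b exceeded the background 90th percentile on all 5 arrays with low spike-in signal and on 3 of the other 7. Its signals were 83.3 to 523 in GnRH samples (median 128) and 110 to 764 in vehicle samples (median 209). Its difference was -0.39 ± 0.52 (SE; interval -1.49 to 0.72; limma adjusted p = 0.981), with -0.07, -1.12 and 0.03 in the 3 sets. In set I both genes differed by less than 0.1 in either direction, and GnRH and vehicle samples overlapped. GnRH 4 had the lowest signal of set II for both genes, and without that array the difference was 0.09 for Rap2a and -0.07 for Rap2b.

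**Figure D2:**
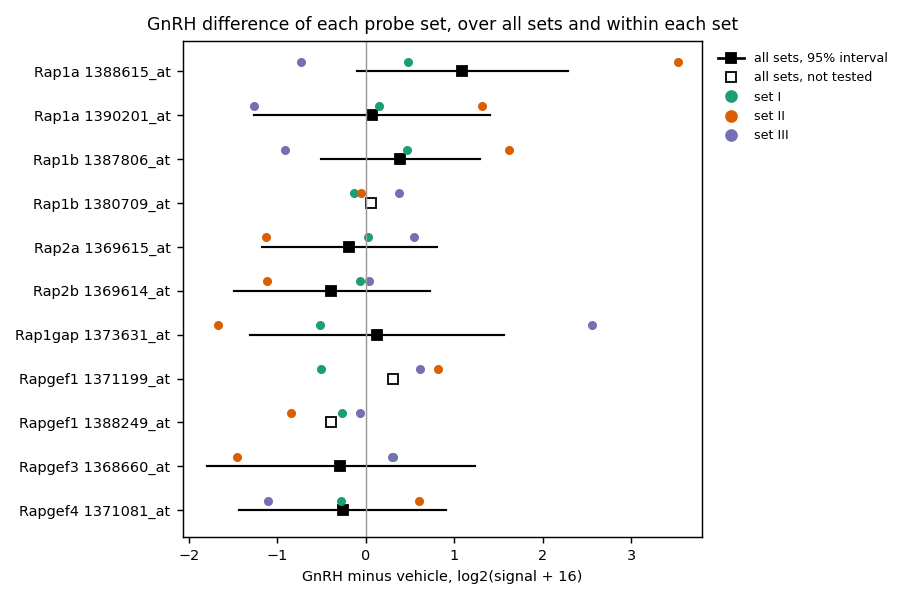
GnRH minus vehicle difference in log2(signal + 16) of the 11 member probe sets, as the value over all 12 arrays (black squares; lines are 95% intervals, open squares were not tested) and within each enrichment set (coloured points). All 8 intervals include 0, and the widest extends 1.52 log2 units on each side of its estimate.

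The regulators gave no clearer difference. Rap1gap signals were 136 and 230 in GnRH samples of set I and 199 and 341 in vehicle samples. In set II they were 80.1 and 97.1 in GnRH samples, against 577 and 169 in vehicle samples, and in set III 768 and 835 in GnRH samples, against 329 and 40.0 in vehicle samples. The GnRH samples were thus below both vehicle samples in set II and above both in set III, with log2 differences of -1.67 and 2.56, while set I gave -0.52 with overlapping samples. The difference over all sets was 0.12 ± 0.68 (SE, n = 6 per group; interval -1.31 to 1.56; limma adjusted p = 0.999). Rap1gap exceeded the background 90th percentile on all 5 arrays with low spike-in signal and on 3 of the other 7, and on neither GnRH array of set II.

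Rapgef3, the Epac1 gene, had signals of 267 and 273 in GnRH samples of set I, against 260 and 178 in vehicle samples. On the other arrays it ranged from 29.5 to 808, and it exceeded the background 90th percentile on 2 of the 7 of high spike-in signal. The difference over all sets was -0.29 ± 0.72 (log2, SE; interval -1.80 to 1.23; limma adjusted p = 0.993), or 0.31 in set I, -1.46 in II and 0.30 in III.

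Rapgef4, the Epac2 gene, which is known for its part in secretion from endocrine cells, had signals of 776 and 730 in GnRH samples of set I, against 1050 and 806 in vehicle samples. Vehicle 5 of set III had a Rapgef4 signal of 906, and the other 7 arrays had 41.5 to 297, all below the background 90th percentile. The Rapgef4 difference was -0.26 ± 0.55 (log2, SE; interval -1.43 to 0.90; limma adjusted p = 0.993), or -0.28 in set I, 0.60 in II and -1.11 in III. Only the set I value of Rapgef4 rests on signals above background in both groups.

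Rapgef1 was dim with both probe sets. Signals of 1371199_at were 26.5 to 276 in GnRH samples (median 180) and 32.0 to 344 in vehicle samples (median 109), and 6 of 12 exceeded the background 90th percentile. Those of 1388249_at were 6.22 to 54.9 in GnRH samples and 8.53 to 171 in vehicle samples, and 0 of 12 exceeded it. The differences were 0.31 and -0.40 on the log2 scale, with no test because both lay below the filter.

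Set I is the preparation whose 4 arrays all had low background, and there the brightest probe set of each of the 8 genes was above the background 90th percentile on every array. Within set I GnRH samples lay above both vehicle samples for 3 of the 8 tested probe sets (37.5%), those of Rap1a 1388615_at, Rap1b 1387806_at and Rapgef3, against 16.6% of all tested probe sets. They lay below for 1 of 8 (12.5%), Rapgef4, against 15.6% of all. The log2 differences in set I were 0.47 ± 0.25 for Rap1a, 0.46 ± 0.26 for Rap1b, 0.31 ± 0.33 for Rapgef3 and -0.28 ± 0.27 for Rapgef4 (SE, n = 2 per group). In limma on these 4 arrays none of them passed (adjusted p = 0.997 for each), nor did any probe set of the table.

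The GnRH differences were also compared between the preparations. In limma's F test of the interaction 0 of the 8 member probe sets passed after adjustment, with a lowest adjusted p of 0.777 for Rap1a, and 0% of all tested probe sets passed. Before adjustment 3 of 8 lay under 0.05 in limma, against 5.36% of all: Rap1a 1388615_at at 0.00123, Rap1gap at 0.0191 and Rap1b at 0.044. The Rap1a and Rap1b differences were highest in set II and lowest in set III, and that of Rap1gap was lowest in set II and highest in set III. The interaction fit without vehicle 4 leaves vehicle 3, the array that stood apart, as the 1 vehicle array of set II. The set II difference in that fit thus rests on 1 vehicle sample. Calls from that fit, for Rap1b and many other probe sets alike, are not counted here. Set II contains vehicle 3, and in set III vehicle 5 was alone in having low spike-in signal. Whether these arrays account for the differences between sets was not tested beyond leaving each out.

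Gene pairs were compared by the difference of their GnRH responses on the same arrays, for 6 pairs fixed by name. Of these, Rapgef1 and Rap1gap, an exchange factor and a GTPase-activating protein, are not paralogs. Rap1a exceeded Rap1b by 0.70 ± 0.51 (log2, SE), or 0.02 in set I, 1.90 in II and 0.18 in III (exact within-set permutation p = 0.204, adjusted p = 0.991 over 6 pairs). The excess was largest in set II, where the Rap1a vehicle signals lay below the background 90th percentile. Rap2a and Rap2b differed by 0.20 ± 0.40 (exact p = 0.667, adjusted p = 0.991), with 0.09, -0.01 and 0.51 in the 3 sets. Rap1b differed from Rap2a by 0.58 ± 0.87 and from Rap2b by 0.78 ± 0.86 (exact p = 0.528 and 0.426). In both cases the value was above 2.7 in set II and below 0 in set III, and in each of these sets the differences of Rap1b and of the Rap2 genes lay on opposite sides of 0. Rapgef3 and Rapgef4 differed by -0.02 ± 1.03 (exact p = 0.991), and Rapgef1 and Rap1gap by 0.18 ± 1.15 (exact p = 0.87). The Rapgef1 probe set of the last pair lay below the filter. With standard errors of 0.40 to 1.15, these tests do not show that the paired genes respond alike.

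**Figure D3:**
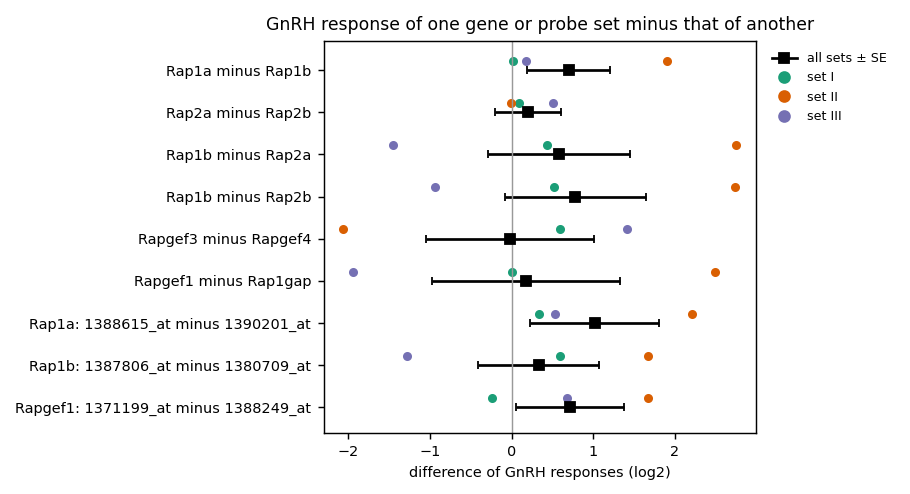
GnRH response of the first gene or probe set minus that of the second, in log2 units, for the 6 gene pairs and the 3 pairs of probe sets of 1 gene, over all arrays (black squares ± SE) and within each enrichment set (coloured points). The pair of Rap2a and Rap2b has the smallest SE, 0.40, and 0 of the 9 pairs passed the permutation test.

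The levels of the members were compared between preparations with limma's F test. Before adjustment 3 of the 8 (37.5%) lay under 0.05 in limma, against 27.8% of all tested probe sets: Rapgef4 at 0.0081, Rap1a 1388615_at at 0.011 and Rap1b at 0.0344. After adjustment 0 of 8 passed, with adjusted p from 0.0758 to 0.722, against 6.02% of all. Without vehicle 5, 12.5% of all tested probe sets passed, and among the members Rap1a (adjusted p = 0.0209 by limma) and Rapgef4 (0.0252) did. In that fit set I holds all arrays of low spike-in signal, and sets II and III hold the 7 of high spike-in signal. Preparation and kind of array cannot be told apart there. Rapgef4 lay below the background 90th percentile on all of those 7 arrays. With all arrays, the mean log2 level was highest in set I and lowest in set II for 3 genes. It was 9.73 and 7.36 for Rapgef4, 10.82 and 8.43 for Rap1a, and 12.16 and 10.78 for Rap1b.

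By spike-in level, 3 of the 8 tested probe sets were at least 2-fold brighter on the 5 arrays with low spike-in signal than on the other 7, against 17.2% of all tested probe sets. The ratio of signal plus 16 was 5.19 for Rapgef4, 4.54 for Rap1a 1388615_at and 2.62 for Rap1b. The Rap1b signal was 3350 to 5420 on the 5 arrays and 455 to 4230 on the 7. Another 2 of 8 were at least 2-fold dimmer on the 5 arrays, against 13.2% of all, with ratios of 0.397 for Rap2a and 0.423 for Rap2b. Rap2a signals were 113 to 211 on the 5 arrays, all above the background 90th percentile there, and 164 to 626 on the 7, above it on 6. The background controls were 2.93-fold higher on the 7 arrays on the same scale, and their part in the levels of Rap2a and Rap2b was not tested. Rap1gap and Rapgef3 had ratios of 1.05 and 1.36.

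**Figure D4:**
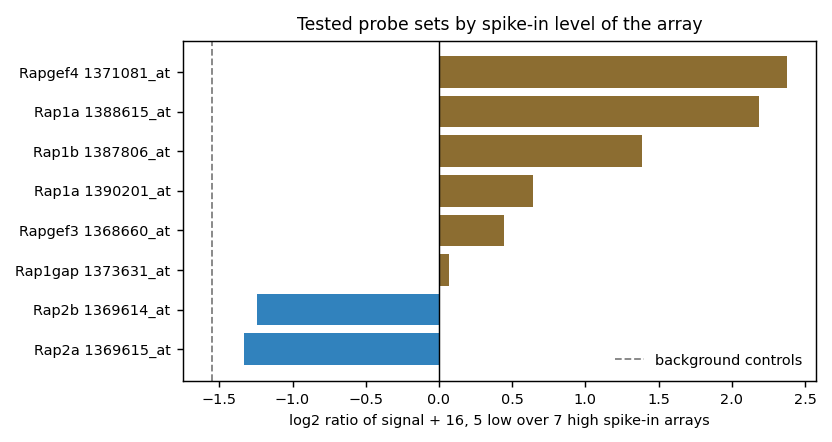
Log2 ratio of the geometric mean of signal plus 16 on the 5 arrays with low spike-in signal over that on the other 7, for the 8 tested member probe sets (bars), with the same ratio for the background controls as a dashed line. Rapgef4, Rap1a 1388615_at and Rap1b lie to the right at ratios of 5.19, 4.54 and 2.62, and the Rap2 genes lie to the left, short of the background controls.

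The genes whose pattern was most like that of Rap1b were found from log2 values less the mean of each enrichment set, by the root mean square difference over the 12 arrays among 10679 genes. They were Ddx3x, an RNA helicase gene (0.18), Phf8, a histone demethylase gene (0.19), and Otud4, a deubiquitinase gene (0.23). The deviation of Rap1b itself from its set means had a root mean square of 0.78. The Ddx3x difference was 0.56 in set I, 1.81 in II and -0.51 in III. That these have the signs of Rap1b follows from how Ddx3x was picked. Of the members, Rapgef4 ranked 2468 (0.69) and Rap1a 3945 (0.80), while Rap2a, Rap2b, Rapgef3 and Rap1gap ranked between 9016 and 10491. These ranks rest on 12 arrays that share 3 preparations and are a description.

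Other genes of the pathway gave no call in either direction. The list held 81 genes, of which 70 were matched on the array and 59 were tested. By limma 0 passed as higher and 0 as lower, 31 were higher and 28 lower in GnRH samples, and the median difference was 0.01, against 0.04 over all tested probe sets. Before adjustment 2 of 59 lay under 0.05, Sipa1l2 and Adcy5, against 3.45% of all. A difference above 0 in every set was seen for 6 of the 59, against 12.6% of all.

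Rap2c, the third Rap2 gene, differed by -0.02 ± 0.54 (log2, SE). Among 6 tested exchange factor genes 4 were higher and 2 lower, with a median of 0.18. The 3 with the smallest p were Rapgef5 (-1.21 ± 0.64; limma adjusted p = 0.981 for each of the 3), Rasgrp2 (0.93 ± 0.78) and Rapgefl1 (-0.59 ± 0.56). Rasgrp2 encodes a calcium-responsive exchange factor for Rap1, and its set I difference was -0.01. For Rapgef5 it was 0.14, followed by -1.61 in set II and -2.16 in III.

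Among 5 tested GTPase-activating protein genes 2 were higher and 3 lower, with a median of -0.11. Sipa1l2, of the SIPA1-like family, differed by -0.93 ± 0.39 (limma adjusted p = 0.981), with -0.11, -1.88 and -0.79 in the 3 sets. Its unadjusted limma p was 0.0302. Garnl3 differed by 0.66 ± 0.48 and Rap1gap2, a relative of Rap1gap, by -0.12 ± 0.23. The Rap1gap2 signal was above the background 90th percentile on all 12 arrays, and its standard error was among the smallest of the named genes.

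Of 8 tested adaptor and upstream genes 4 were higher and 4 lower, with Arrb1, a beta-arrestin gene, at 0.38 ± 0.33, Crkl, an adaptor that brings Rapgef1 to the membrane, at -0.51 ± 0.44, and Sh3kbp1 at -0.30 ± 0.28. Of 14 tested effector genes 7 were higher and 7 lower, with a median of 0.01. Tiam1 and Vav2, exchange factors for Rac that bind Rap1, differed by -0.81 ± 0.51 and -0.42 ± 0.30, and Tnik, a Rap2-binding kinase gene, by -0.60 ± 0.58. The Tnik signal exceeded the background 90th percentile on 5 of 12 arrays.

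On the cyclic AMP side, which feeds the Epac proteins, 6 of 14 tested genes were higher and 8 lower, with a median of -0.07. Adcy5, an adenylyl cyclase gene, differed by -1.39 ± 0.62 (limma adjusted p = 0.981; unadjusted p = 0.0404). It was -0.39 in set I and -0.13 in set III. The set II difference of -3.64 sets GnRH signals of 26.0 and 28.2, below the background 90th percentiles of 335 and 219, against vehicle signals of 857 and 314, of which the second was also below its own (334), so its size is uncertain. Prkar1a and Prkar2b, regulatory subunits of protein kinase A, differed by 0.68 ± 0.39 and -0.66 ± 0.43. Of 11 tested Ras family genes outside the Rap group 8 were higher and 3 lower, with a median of 0.13. Rasd2 differed by -0.92 ± 0.51, Rheb, an activator of mTORC1, by 0.67 ± 0.44, and Rras2 by 0.37 ± 0.23. Rras2 was higher in each set (0.51, 0.45 and 0.17). None of these passed (limma adjusted p = 0.981 for each gene named in this paragraph).

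Several of the pathway differences shrank when 1 array was left out, some nearly to 0 and others by a smaller part. Without GnRH 5 the log2 difference of Rapgefl1 was -0.02 and that of Tiam1 -0.42, and without GnRH 3 that of Crkl was -0.17, of Prkar2b -0.27, of Rapgef5 -0.73 and of Sipa1l2 -0.65. Without vehicle 3 it was 0.12 for Rheb, 0.27 for Prkar1a and -0.93 for Adcy5. Without vehicle 5 it was -0.08 for Tnik, 0.36 for Rasgrp2 and -0.15 for Sh3kbp1, and without GnRH 4 it was -0.42 for Rasd2. Rras2 moved least of the named pathway genes in proportion to its size, with 0.32 to 0.44 over all omissions.

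Markers of cell types in the cultures were measured beside these genes, and 0 of their tested members passed in limma. Before adjustment 4 of them lay under 0.05 in limma, against 3.45% of all tested probe sets. Each had an adjusted p of 0.981 in limma. They were 1 of 9 tested gonadotrope, 1 of 8 other pituitary and 1 of 6 folliculostellate markers, and the 1 tested platelet and erythrocyte marker. Of the 3 endothelial, 4 fibroblast and pericyte and 5 leukocyte markers tested, 0 lay under 0.05. Pomc, the hormone precursor gene of corticotropes and melanotropes, differed by -1.77 ± 0.50 (log2, SE), with -0.55, -2.35 and -2.40 in the 3 sets, and exceeded the background 90th percentile on 6 of 12 arrays. Of the 8 tested markers of other pituitary hormone cells 6 were higher and 2 lower, and Tbx19 differed by 0.64 ± 0.51. Egr1, an immediate early gene listed among the gonadotrope markers, differed by 0.77 ± 0.29 (0.32, 1.61 and 0.38). Anxa1, a folliculostellate marker, differed by 0.62 ± 0.29 (0.33, 1.24 and 0.30). Of the 6 tested folliculostellate markers 4 were higher and 2 lower, S100b (-0.84 ± 0.66) and Aldh1a2 (-0.80 ± 0.48). Of the gonadotrope transcription factor genes, Nr5a1 differed by -1.15 ± 0.59 and Foxl2 by -0.67 ± 0.33, both below 0 in every set. The same held for 11.4% of all tested probe sets. Pitx1 differed by -0.47 ± 0.39 and Gata2 by 0.20 ± 0.30. Of the 9 tested gonadotrope markers 6 were higher and 3 lower. Cga differed by 0.89 ± 0.67, Lhb by 0.74 ± 0.55 and Gnrhr, the GnRH receptor gene, by 0.18 ± 0.53. In sets I, II and III the difference was 0.13, 0.15 and 2.4 for Cga, and 0.13, 0.46 and 1.63 for Lhb. Leaving out vehicle 5 of set III, the omission that brought each nearest to 0, gave 0.23 for Cga and 0.18 for Lhb. By spike-in level, Cga was 6.77-fold and Lhb 4.97-fold dimmer on the 5 low arrays, of which vehicle 5 is 1. The part of spike-in level in these 2 differences was not tested. Itga2b, which marks platelets, differed by 1.46 ± 0.51 with 0.02, 2.78 and 1.59 in the 3 sets, and was the 1 tested gene of 7 platelet and erythrocyte markers. The other platelet markers lay below the filter, with differences of 0.37 for Pf4, 0.05 for Gp9 and -0.18 for Ppbp. The summed signal of the platelet and erythrocyte markers, Itga2b included, was 555 to 2030 in GnRH samples and 516 to 1080 in vehicle samples. Leukocyte markers had a median difference of -0.36 over 5 tested genes, with summed signals of 928 to 2380 in GnRH samples and 944 to 3600 in vehicle samples. Endothelial markers, from cells in which Rap1 and Rapgef3 control the barrier, had a median of 0.24 over 3 tested genes, with 953 to 2470 in GnRH samples and 1020 to 4020 in vehicle samples. Pecam1 was above the background 90th percentile on 3 of 12 arrays and Ptprc on 4. Gonadotrope markers had a median of 0.18 over 9 tested genes, other pituitary hormone cell markers 0.26 over 8, folliculostellate markers 0.06 over 6, and fibroblast and pericyte markers -0.22 over 4. The part of these cells in the members' values was not tested.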

How the data were processed

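RNA from 12 samples was hybridised to 12 arrays, 1 per sample, after repeated T7-based amplification, as the labels' protocols record. The authors deposited probe set signal intensity on a linear scale from GCOS, as named in the submitters' processing notes without version or settings. Deposited trimmed means of 497 to 499 show that the authors' values were scaled to a common target. No column of another sample was in the table. All arrays were then brought to a trimmed mean of 500 over probe sets other than controls (2% trimmed at each end).

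Values were analysed as log2(signal + 16) in limma 3.58.1 under R 4.3.3, with the enrichment set and the agent as terms, an intensity trend and Benjamini-Hochberg adjustment. Signals are read from the array's own brightness, and the number of arrays limits the precision. The labels call the samples biological replicates, but nothing says that wells of 1 preparation were separate cultures, so p-values measure only the spread between these samples. Replicate numbers do not pair samples. Gene symbols came from the platform annotation (20826 probe sets with 1 symbol, 436 with several, 9780 with none), of which 20758 matched an Entrez identifier in RefSeq's GRCr8 table. A gene stands for its probe set of highest mean. Fits were tested on simulated data.

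The members, the lists and the named genes were chosen with earlier results of these data known. Named genes are the 8 members, the 3 genes with the smallest p of each pathway list, Lhb, Cga, Gnrhr and Fosb as context, and the 3 genes most like Rap1b. The marker genes named (Pomc, Tbx19, Egr1, Anxa1, S100b, Aldh1a2, Itga2b, Pf4, Gp9, Ppbp, Nr5a1, Foxl2, Pitx1, Gata2, Pecam1 and Ptprc) lie outside this rule and were chosen after their values were seen. The background controls, their 90th percentile and the split of arrays by spike-in signal were chosen after seeing the data. Of 81 pathway genes 11 were not matched on the array.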

Additional observations from a re-analysis of the deposited data

Results flagged for a closer look

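Of 90 groups of 6 arrays checked, 2 for each of 45 probe sets of named genes, 9 held 1 array far from the other 5. The cutoff passes about 1 in 20 groups of independent normal values. These groups span 3 preparations and share their arrays, so the count cannot be read against that rate. For Rap1a 1390201_at it was GnRH 6, with a signal of 20.8 against 380 to 478 in the other GnRH samples. Vehicle 3 was the far array for Rapgef5 (762, against 166 to 295 in the other vehicle samples), Tiam1 (162, against 638 to 1110), Prkar1a (1740, against 9270 to 16700), Rheb (855, against 7410 to 13600) and Phf8 (110, against 545 to 1090). GnRH 5 was far below the other GnRH samples for Rapgefl1 (56.2, against 302 to 671), GnRH 3 for Prkar2b (82.3, against 518 to 729) and GnRH 4 for Rasd2 (44.4, against 271 to 484).

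For 3 of the 40 tested probe sets among them both GnRH samples lay above both vehicle samples in 1 preparation and below both in another, against 13.3% of all tested probe sets, so the count is not a result about these genes. The log2 differences for Rap1b were 0.46 in set I, 1.62 in II and -0.91 in III. They were -1.67 in set II and 2.56 in set III for Rap1gap, and 0.20 in set I and -1.68 in set II for Crkl. The differences between single pairs of sets were not tested. Limma's F test over the 3 sets gave adjusted p of 0.924 for Rap1b, 0.891 for Rap1gap and 0.940 for Crkl.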

How the results depend on the processing

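The 1 probe set called in the whole table, Fosb, is no member; the count was 0 with a pseudocount of 1, quantile normalization, no set term, the replicate block, no intensity trend, each set alone and the 5 arrays with low spike-in signal, and 0 to 1 with each array left out, the 1 being without vehicle 3. In 0 of these settings did a member probe set pass. Calls between enrichment sets numbered 1122, 618 after quantile normalization and 127 (without vehicle 1) to 2332 (without vehicle 5) with 1 array left out. Calls of the interaction numbered 0, and 0 to 815 with 1 array left out, 815 without vehicle 4. The study's criterion was met by 1419 probe sets, and omission of single arrays gave 1424 to 1934, and the pair tests gave 0 to 0 calls. With each array left out the log2 differences were 0.76 to 1.61 for Rap1a, -0.04 to 0.68 for Rap1b, -0.45 to 0.09 for Rap2a, -0.71 to -0.07 for Rap2b, -0.51 to 0.56 for Rap1gap, -0.10 to 0.62 for Rapgef1, -0.68 to 0.38 for Rapgef3 and -0.68 to 0.16 for Rapgef4. The mean over both probe sets of a gene gave 0.58 for Rap1a, 0.23 for Rap1b and -0.05 for Rapgef1, against 1.09, 0.39 and 0.31 for the brighter probe set. The cause of these shifts was not tested. The replicate block stood for no known pairing: same-numbered samples had correlations of deviations from -0.22 to 0.65, and 2 of 6 GnRH samples correlated best with their own number. The higher background of 7 arrays limits what can be said of Rapgef1, Rapgef3, Rapgef4, Rap1gap and Rap2b.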
